A study of Mus musculus with 8 samples.

Results

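The genes that write, keep and erase 5-methylcytosine were followed in mouse embryonic stem cells after a transient knockdown of Mkrn1. The group was chosen by name and function and held 10 genes: Dnmt1, Dnmt3a, Dnmt3b, Dnmt3l, Uhrf1, Tet1, Tet2, Tet3, Tdg and Prdm14. Of these, 9 had a probe set annotated with 1 gene symbol, among 19937 genes measured in all. Tdg was not assessed, because its 4 probe sets are shared with the pseudogene Tdg-ps2. Where a gene had several probe sets, the brightest one on average was used.

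The tested population was the male R1 line of mouse embryonic stem cells (strain 129X1 x 129S1) that had received the plasmid pLKO.1 shMKRN1 (4 arrays, numbered 2, 4, 6 and 8). The control population was R1 cells with pLKO.1 shGFP, a hairpin against a jellyfish gene (4 arrays, numbered 1, 3, 5 and 7). Both populations grew in serum and LIF, were selected with puromycin for 4 days, and were lysed 6 days after transfection. MKRN1 is a RING-type ubiquitin ligase that binds RNA, and each group rested on 1 hairpin sequence in transiently transfected populations. Nothing in the labels tells whether samples of 1 group were transfected separately. The p-values therefore cover only the spread among the arrays, and that spread may be technical. The hairpin is printed because it defines the tested group, in the direction given in the labels:
shMKRN1: gcgagatgttgcttatgcttt

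DNA methylation is placed on unmethylated CpG sites by the de novo enzymes DNMT3A and DNMT3B, helped by DNMT3L, which has no catalytic activity of its own. DNMT1 copies the mark after replication, and UHRF1 brings it to the half-methylated sites. TET enzymes oxidise 5-methylcytosine, and TDG removes the most oxidised forms so that base excision repair can restore cytosine. In mouse embryonic stem cells PRDM14 is known to hold the de novo enzymes down, and cells in serum carry more methylation than cells in inhibitors of ERK and GSK3 signalling.

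Values are log2 expression as deposited, after RMA, and a difference of 1 is a doubling. Mkrn1 checked the labels: it measured 9.81, 9.81, 9.86 and 9.88 in shMKRN1 against 10.45, 10.45, 10.51 and 10.34 in shGFP. Its level in shMKRN1 was 66.2% of that in shGFP (exact two-sided permutation p = 0.0286, the smallest that 70 assignments allow; limma adjusted p = 0.000767). Stem cell markers were present in both groups: the summed level of 10 of them lay between 15.34 and 15.40 in shMKRN1 and between 15.34 and 15.40 in shGFP, and 1 of the 10, Nanog, passed the limma test. The summed level of 10 fibroblast markers was 10.63 to 10.87 in shMKRN1 and 10.48 to 10.67 in shGFP. Of these 10 markers, 7 had a higher and 3 a lower mean in shMKRN1, and 3 had an unadjusted p under 0.05, against 19.5% of all genes. Pdgfrb and Col1a1, both higher, passed the limma test, against 4.49% of all genes. S100a4 did not, at a change of -0.27 (adjusted p = 0.118) with groups that did not overlap. Without shGFP 7 and shMKRN1 8, Col1a1 kept its call (adjusted p = 0.0176) and Pdgfrb lost it (adjusted p = 0.0634). The part of such cells in the results below was not tested. None of 7 primitive endoderm markers passed limma, and 1 had an unadjusted p under 0.05, against 19.5% of all genes. Array shGFP 7 scored 23.2 on the leading principal component, which held 37.6% of the variance, against -3.45 to 6.20 for the other shGFP arrays. Array shMKRN1 8 scored 7.46, against -15.2 to -6.02 for the other shMKRN1 arrays. Without both of these arrays, Mkrn1 kept its call (change -0.64, limma adjusted p = 0.00133). In a bulk sample, fewer cells of a type and less RNA per cell cannot be told apart.

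Of the 9 methylation genes 2 passed the limma test, in opposite directions. Dnmt3a, a de novo methyltransferase gene, rose to 1.19 times its control level, and Tet1, the TET gene best known from embryonic stem cells, fell to 0.853 times its control level. For the other 7 the limma adjusted p lay between 0.157 and 0.786. Over all genes 4.49% passed at an adjusted p of 0.05, with 3.66% higher and 0.838% lower. The groups did not overlap for Dnmt3a and Tet1, against 14.1% of all genes. An unadjusted p under 0.05 was seen for 4 of the 9, Tet3 and Prdm14 being the others, against 19.5% of all genes. The median change of the 9 was 0.039 and that of all genes 0.0077. Each of the 2 calls was kept in only 3 of the 8 fits that left out 1 array. Both calls held without shGFP 7 and shMKRN1 8 together (limma adjusted p = 0.0365 for Dnmt3a and 0.0357 for Tet1). That exclusion was chosen after seeing the data.

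**Figure D1:**
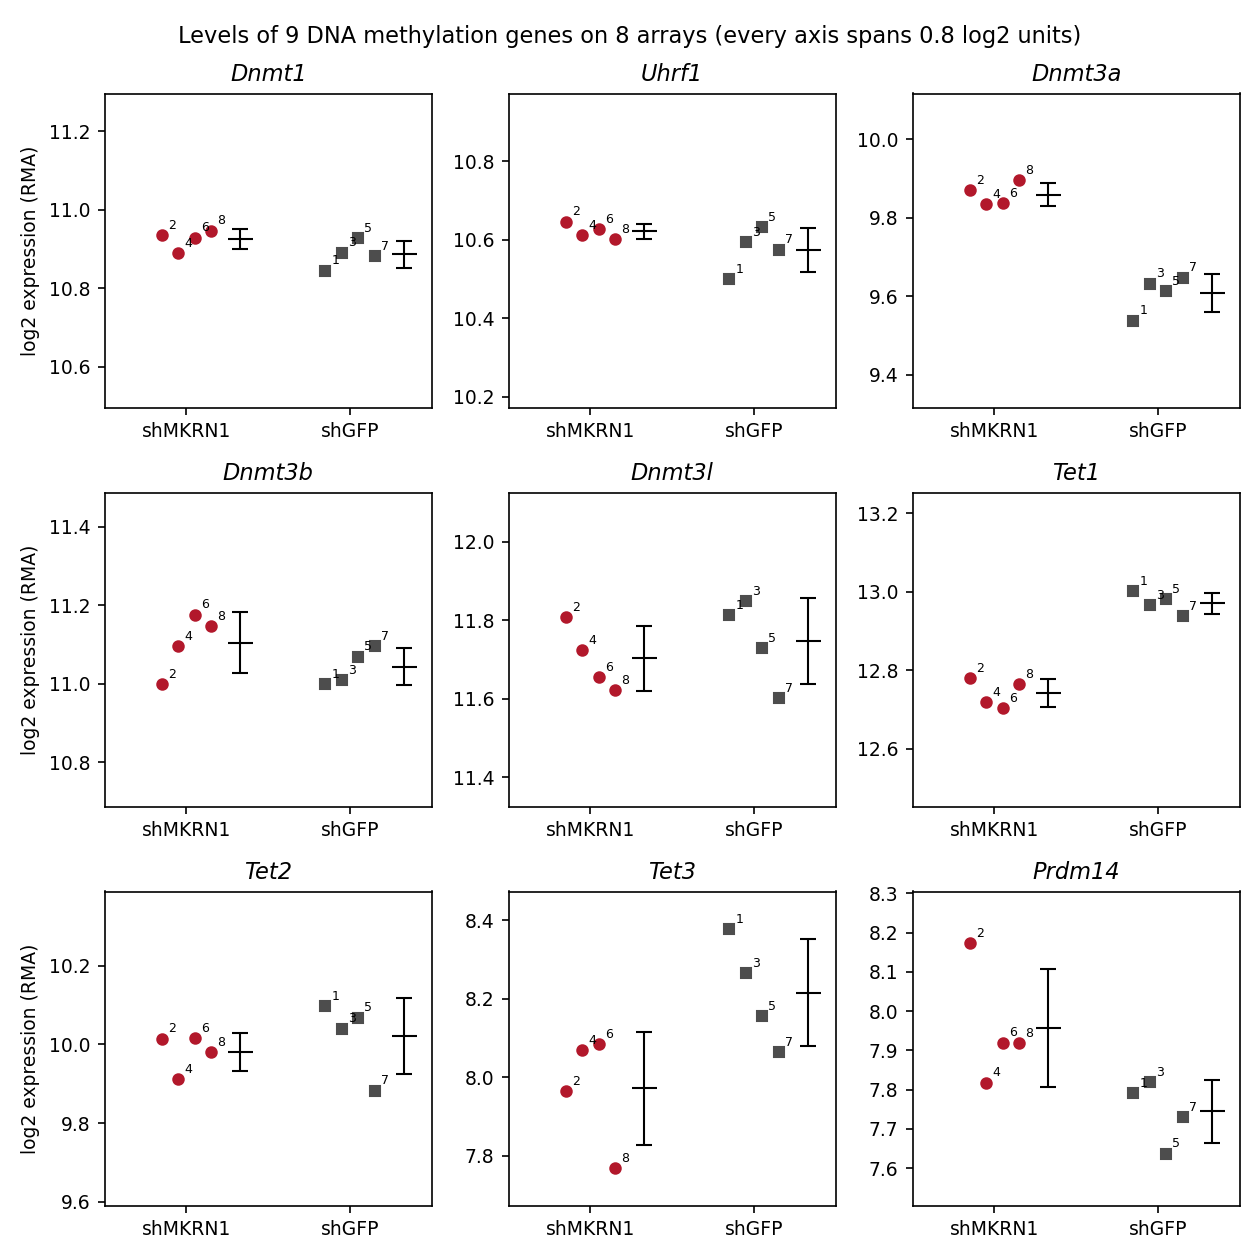
Log2 expression of the 9 measured genes in the 4 shMKRN1 arrays (red circles) and the 4 shGFP arrays (grey squares), with array numbers; the bar beside each group is the mean with its SD, and every vertical axis spans 0.8 log2 units. The groups stand apart for Dnmt3a (9.83 to 9.90 against 9.54 to 9.65) and for Tet1 (12.70 to 12.78 against 12.94 to 13.00), and overlap for the other genes.

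Neither gene of the maintenance pair passed the test. Dnmt1, the maintenance methyltransferase gene (Entrez gene 13433), measured 10.93, 10.89, 10.93 and 10.95 in shMKRN1 against 10.84, 10.89, 10.93 and 10.88 in shGFP. The arrays overlapped, with 3 of 4 shMKRN1 arrays above the highest shGFP array. The fold was 1.03, with a 95% confidence interval of 0.958 to 1.10 (limma adjusted p = 0.716). Uhrf1 (Entrez gene 18140), the reader of half-methylated DNA that recruits DNMT1, measured 10.65, 10.61, 10.63 and 10.60 in shMKRN1 against 10.50, 10.59, 10.63 and 10.57 in shGFP. Array shMKRN1 2 was the one shMKRN1 array above all shGFP arrays, and shGFP 1 was the lowest of the 8. The fold was 1.03 (0.959 to 1.11; limma adjusted p = 0.669). Array by array, the gap between Dnmt1 and Uhrf1, set to 0 at the shGFP mean, was -0.034 to 0.033 in shMKRN1 and -0.016 to 0.035 in shGFP.

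Among the de novo genes, Dnmt3a alone passed the test. Dnmt3a (Entrez gene 13435) measured 9.87, 9.83, 9.84 and 9.90 in shMKRN1 against 9.54, 9.63, 9.61 and 9.65 in shGFP. Every shMKRN1 array was above every shGFP array, and shGFP 1 was the lowest. The means were 9.86 ± 0.029 in shMKRN1 and 9.61 ± 0.049 in shGFP (SD, n = 4 each), a log2 change of 0.25 (SE 0.048; limma adjusted p = 0.0191) with a fold interval of 1.11 to 1.28. The call was lost when shGFP 1, shGFP 3, shMKRN1 2, shMKRN1 4 or shMKRN1 6 was left out (adjusted p of 0.0526 to 0.0633), while the change stayed between 0.23 and 0.26. Quantile normalization of the deposited values gave a change of 0.21 and an adjusted p of 0.0559.

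Dnmt3b (Entrez gene 13436), the second de novo enzyme gene and one that is abundant in the epiblast, measured 11.00, 11.10, 11.18 and 11.15 in shMKRN1 against 11.00, 11.01, 11.07 and 11.10 in shGFP. The groups overlapped, with array shMKRN1 2 at the bottom of the 8. Its fold was 1.04 (95% confidence interval 0.958 to 1.14; limma adjusted p = 0.622). Dnmt3l (Entrez gene 54427), the catalytically inactive partner, measured 11.81, 11.72, 11.66 and 11.62 in shMKRN1 against 11.81, 11.85, 11.73 and 11.60 in shGFP. Here the spread within each group, 0.082 in shMKRN1 and 0.11 in shGFP, exceeded the difference of -0.045 (SE 0.068; limma adjusted p = 0.786).

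The de novo genes were also set against each other within each array. The log2 difference between Dnmt3a and Dnmt3b, set to 0 at the shGFP mean, lay between 0.096 and 0.31 in shMKRN1 and between -0.026 and 0.059 in shGFP, so the groups did not overlap. For Dnmt3a and Dnmt3l it lay between 0.20 and 0.41 in shMKRN1 and between -0.13 and 0.19 in shGFP. For Dnmt3b and Dnmt3l the groups overlapped, at -0.11 to 0.23 in shMKRN1 and -0.14 to 0.20 in shGFP. These differences carry no test. Dnmt3a by itself already separated the groups, as did 14.1% of all genes, and the share over other gene pairs was not computed.

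Dnmt3a is read from more than 1 start site, and a shorter protein made from an internal start is known to be the main form in mouse embryonic stem cells. Which of these transcripts its single probe set measures was not tested. Promoter windows from RefSeq (build GRCm38.p6, 250 bases before to 50 after each start) were matched for 9 of the 10 genes. Prdm14 had no window, and Tdg had one although its expression was not assessed. The 3 windows shown belong to the 2 genes that passed the test. CpG dinucleotides, the substrate of the encoded enzymes, are in capitals, and the lines run 5′ to 3′ on the gene's strand:
Dnmt3a upstream start, chr12:3806730-3807029, plus strand: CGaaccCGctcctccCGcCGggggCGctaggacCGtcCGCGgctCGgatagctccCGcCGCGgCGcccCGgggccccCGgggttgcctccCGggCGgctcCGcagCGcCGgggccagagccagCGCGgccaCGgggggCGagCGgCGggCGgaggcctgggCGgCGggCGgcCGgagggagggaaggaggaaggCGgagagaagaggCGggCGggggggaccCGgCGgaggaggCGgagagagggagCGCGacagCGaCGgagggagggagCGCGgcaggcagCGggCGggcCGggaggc
Dnmt3a downstream start, chr12:3891494-3891793, plus strand: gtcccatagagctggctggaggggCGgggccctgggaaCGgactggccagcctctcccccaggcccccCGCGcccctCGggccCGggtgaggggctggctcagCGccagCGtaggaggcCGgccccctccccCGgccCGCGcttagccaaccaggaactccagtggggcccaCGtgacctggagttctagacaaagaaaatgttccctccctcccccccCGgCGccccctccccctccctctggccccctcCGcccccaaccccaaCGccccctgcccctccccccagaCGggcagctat
Tet1, chr10:62887275-62887574, minus strand: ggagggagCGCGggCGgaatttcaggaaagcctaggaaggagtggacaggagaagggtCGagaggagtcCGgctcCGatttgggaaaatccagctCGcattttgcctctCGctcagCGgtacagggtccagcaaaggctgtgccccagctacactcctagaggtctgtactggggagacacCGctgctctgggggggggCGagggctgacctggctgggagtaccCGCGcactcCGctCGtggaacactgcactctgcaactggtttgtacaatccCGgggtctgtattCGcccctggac

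The upstream Dnmt3a window held 46 CpG sites, a number reached by 1.65% of the 32851 windows in the table. The downstream Dnmt3a window held 18 (29.7% of windows hold as many or more) and the Tet1 window 17 (31.4%). The median window held 7, and 94.6% held at least 1. A further Dnmt3a window overlapped the upstream one and held 47. Among the genes that did not pass the test, the windows ranged more widely. The 3 Dnmt3l windows held 6, 4 and 3 CpG sites, the Tet2 window 57, the Dnmt3b window 30 and the Tet3 window 22. The 3 Dnmt1 windows held 33, 12 and 2, and the 2 Uhrf1 windows 12 and 33. The window of Tdg, whose expression was not assessed, held 26. The search used the letters CG, which read the same on both strands. CpG number is given as a description of these windows, and no methylation was measured in them.

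Tet1 was the member that fell, and all of its probe sets moved the same way. Tet1 (Entrez gene 52463) encodes a dioxygenase that turns 5-methylcytosine into 5-hydroxymethylcytosine. Its kept probe set measured 12.78, 12.72, 12.70 and 12.77 in shMKRN1 against 13.00, 12.97, 12.98 and 12.94 in shGFP. Every shMKRN1 array was below every shGFP array. The means were 12.74 ± 0.036 in shMKRN1 and 12.97 ± 0.027 in shGFP (SD, n = 4 each), a log2 change of -0.23 (SE 0.046; limma adjusted p = 0.0238) with a fold interval of 0.795 to 0.916. The call was lost without shGFP 1, shGFP 3, shMKRN1 2, shMKRN1 4 or shMKRN1 6 (adjusted p of 0.0574 to 0.0946), with changes between -0.24 and -0.22. It was also lost with median centring, at -0.20 and an adjusted p of 0.0503.

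A second Tet1 probe set (10369688) measured 11.73, 11.72, 11.73 and 11.71 in shMKRN1 against 12.09, 12.07, 11.99 and 11.95 in shGFP. The third (10369690) measured 11.96, 11.89, 11.92 and 11.92 in shMKRN1 against 12.21, 12.23, 12.16 and 12.14 in shGFP. Both separated the groups without overlap. In a limma fit over all 34760 probe sets their changes were -0.30 (SE 0.050; adjusted p = 0.0296) and -0.26 (SE 0.047; adjusted p = 0.0374). In that fit the adjusted p of the kept set was 0.0526. The 3 sets share the gene and the RNA samples and are not independent replicates.

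**Figure D2:**
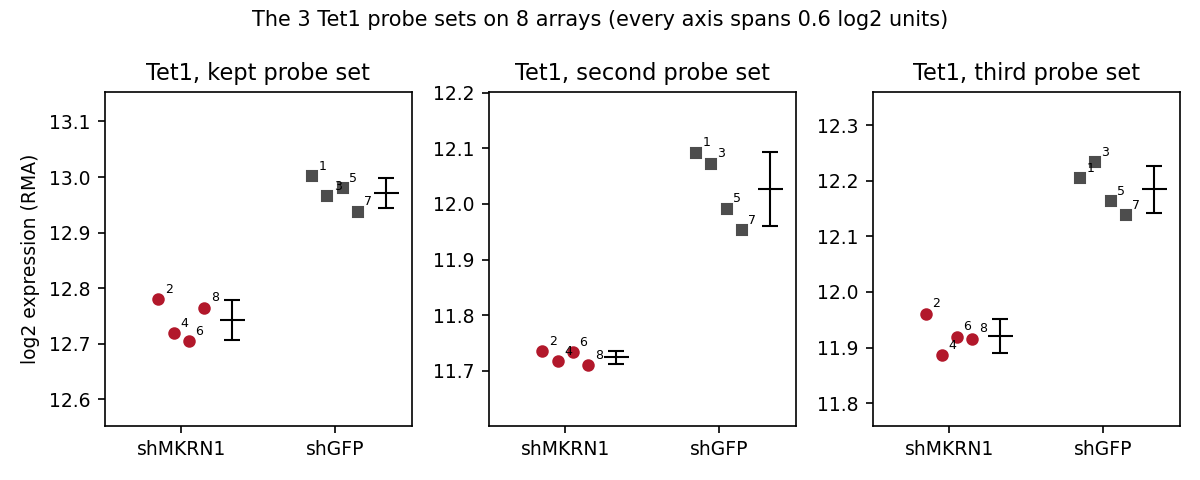
Log2 expression of the 3 Tet1 probe sets in the 4 shMKRN1 arrays (red circles) and the 4 shGFP arrays (grey squares); the bar beside each group is the mean with its SD, and every vertical axis spans 0.6 log2 units. In each panel all shMKRN1 arrays lie below all shGFP arrays, with changes of -0.23, -0.30 and -0.26.

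Tet2 and Tet3, the other dioxygenase genes of the family, did not pass. Tet2 (Entrez gene 214133) measured 10.02, 9.91, 10.02 and 9.98 in shMKRN1 against 10.10, 10.04, 10.07 and 9.88 in shGFP. Array shGFP 7 was the lowest of the 8, below every shMKRN1 array, while the other shGFP arrays were above them all. The fold was 0.972 (95% confidence interval 0.886 to 1.07; limma adjusted p = 0.777). Tet3 (Entrez gene 194388), best known for oxidising the paternal genome in the zygote, measured 7.96, 8.07, 8.08 and 7.77 in shMKRN1 against 8.38, 8.27, 8.16 and 8.06 in shGFP. The groups overlapped, through shGFP 7. Its log2 difference of -0.24 (SE 0.088) was close to that of Tet1 in size, but the SD of 0.15 in shMKRN1 and 0.14 in shGFP was larger than for Tet1 (limma adjusted p = 0.157). The other Tet3 probe set measured 7.90, 7.67, 7.71 and 7.78 in shMKRN1 against 8.03, 7.86, 7.89 and 7.85 in shGFP, a difference of -0.15 (SE 0.068; adjusted p = 0.339 over all probe sets). With array weights, Tet3 passed the test (change -0.23, adjusted p = 0.0473).

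Within arrays, the difference between Tet1 and Tet2, set to 0 at the shGFP mean, was -0.26 to -0.14 in shMKRN1 and -0.045 to 0.11 in shGFP, without overlap. For Tet1 and Tet3 the groups overlapped, at -0.14 to 0.24 in shMKRN1 and -0.13 to 0.12 in shGFP. They also overlapped for Tet2 and Tet3, at 0.035 to 0.40 in shMKRN1 and -0.087 to 0.11 in shGFP. Between Dnmt3a and Tet1, a pair chosen after their values were seen, the difference lay between 0.45 and 0.50 in shMKRN1 and between -0.10 and 0.073 in shGFP. No test was run on these differences either, and Tet1 by itself already separated the groups, as did 14.1% of all genes.

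**Figure D3:**
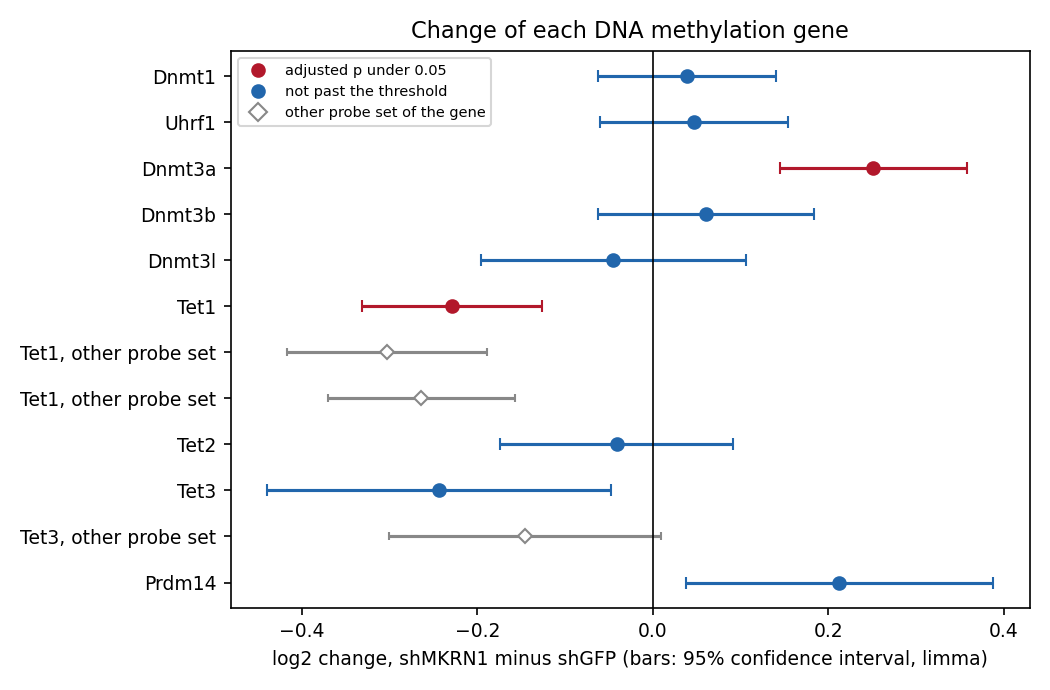
Log2 change (shMKRN1 minus shGFP, horizontal axis) of each gene with its 95% confidence interval. Filled circles are the kept probe sets, red where the adjusted p was under 0.05, and open diamonds are other probe sets of the same gene. Circles come from the limma fit over all genes and diamonds from the fit over all 34760 probe sets. In the latter fit the kept Tet1 set did not pass (adjusted p = 0.0526). The intervals of Dnmt3a (0.14 to 0.36) and Tet1 (-0.33 to -0.13) leave out 0, and both genes pass the test. Those of Tet3 (-0.44 to -0.048) and Prdm14 (0.037 to 0.39) leave out 0 before adjustment only.

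Prdm14 (Entrez gene 383491), a zinc finger repressor of naive cells and of the germ line, measured 8.17, 7.82, 7.92 and 7.92 in shMKRN1 against 7.79, 7.82, 7.64 and 7.73 in shGFP. Array shMKRN1 2 was the highest, and shMKRN1 4 lay level with shGFP 3, so the groups overlapped narrowly. The log2 difference was 0.21 (SE 0.079; limma adjusted p = 0.166), and it was 0.14 without shMKRN1 2 and up to 0.26 when another array was left out. All 9 genes lay above the range of most olfactory and vomeronasal receptor genes, which these cells are not known to use: 95% of those 1194 genes averaged under 6.50.

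**Figure D4:**
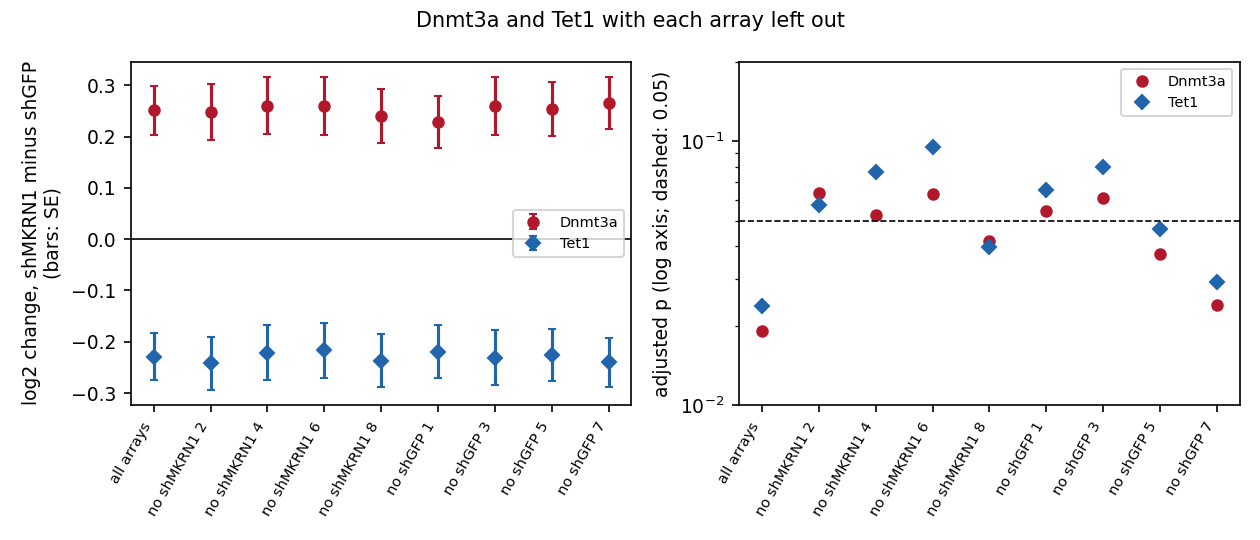
Left, log2 change (shMKRN1 minus shGFP) of Dnmt3a (red circles) and Tet1 (blue diamonds) with its SE, with all arrays and with each array left out; right, the limma adjusted p of the same fits on a log axis, with 0.05 dashed. The changes stay between 0.23 and 0.26 for Dnmt3a and between -0.24 and -0.22 for Tet1, while the adjusted p crosses 0.05 in 5 of the 8 fits for each gene.

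For each gene that passed, the genes with the most similar profile over the 8 arrays were listed, by the root mean square difference after each gene was centred on its own mean. Nearest to Dnmt3a were Dmc1, a meiotic recombinase gene (0.025 log2 units), Dnm1, a dynamin gene (0.025), and Slc20a2, a phosphate transporter gene (0.029). The median over all genes was 0.16. Nearest to Tet1 were the kinase gene Hipk1 (0.012), Atxn7l1 (0.028) and the corepressor gene Tle4 (0.032), also against a median of 0.16. Their changes were 0.21 to 0.28 for the first 3 and -0.22 to -0.21 for the others, which follows from how they were chosen.

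The wider pathway was read from 8 lists holding 88 genes, of which 82 were measured. In all, 14 passed the test (13 higher, 1 lower), or 17.1%, against 4.49% of all genes (3.66% higher and 0.838% lower), and 8 of the 14 were germ line genes. The rise of germ line genes was known from these data before their list was drawn up. The share of 17.1% therefore describes the chosen lists and is no test of the pathway. Without shGFP 7 and shMKRN1 8 together, 13 of the 14 kept their call (adjusted p up to 0.0425), and the germ line gene Brdt, named after its values were seen, lost it (adjusted p = 0.0625). Among 8 partners of maintenance, 2 rose and none fell, and the median change was 0.088, or 0.028 over members above the median level of all genes. Before adjustment, 4 of the 8 had a limma p under 0.05, against 19.5% of all genes. Uhrf2, a UHRF1 paralog known to bind oxidised methylcytosine, rose to 9.50 ± 0.025 in shMKRN1, against 9.12 ± 0.089 in shGFP (SD, n = 4 each; change 0.38, SE 0.056; limma adjusted p = 0.00554), and held its call without each array in turn. Dppa3, whose protein keeps UHRF1 off DNA in oocytes and early embryos, rose to 7.56 ± 0.25 in shMKRN1, against 6.77 ± 0.30 in shGFP (change 0.79, SE 0.16; adjusted p = 0.0233). Its call was lost without shGFP 1, shGFP 3, shGFP 5 or shMKRN1 6 (adjusted p up to 0.0796).

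Of 9 measured partners of de novo methylation and heterochromatin, such as Setdb1, Trim28 and Zfp57, none passed limma. An unadjusted p under 0.05 was seen for 1 of them, Zfp445 (change -0.14, adjusted p = 0.156), against 19.5% of all genes. Of 11 TET partners and cofactor enzymes, 1 rose and 1 fell (median -0.043), against 3.66% higher and 0.838% lower over all genes. Before adjustment, 5 of the 11 had a limma p under 0.05, against 19.5% of all genes. Qser1, known from human embryonic stem cells to guard unmethylated promoters together with TET1, fell to 11.64 ± 0.074 in shMKRN1, against 11.95 ± 0.026 in shGFP (change -0.31, SE 0.052; limma adjusted p = 0.0118), and held its call without each array in turn. Nanog, a pluripotency factor whose protein binds TET1, rose to 12.55 ± 0.052 in shMKRN1, against 12.31 ± 0.045 in shGFP (change 0.25, SE 0.050; adjusted p = 0.0256). The Nanog call was lost without shGFP 3, shMKRN1 2, shMKRN1 4 or shMKRN1 6 (adjusted p up to 0.0974).

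Over all genes 3.66% were called higher and 0.838% lower. Of 16 measured genes of base excision repair, deamination and GADD45 function, 6 had an unadjusted limma p under 0.05, against 19.5% of all genes. After adjustment, 1 of the 16 rose and none fell (median 0.094). This was Gadd45b, a stress-induced gene linked to active demethylation, at 9.43 ± 0.11 in shMKRN1 and 8.99 ± 0.16 in shGFP (change 0.44, SE 0.088; limma adjusted p = 0.0235). Of 8 partners of PRDM14, 1 rose, the germ cell factor gene Tfap2c, at 8.996 ± 0.13 in shMKRN1 and 8.56 ± 0.15 in shGFP (change 0.44, SE 0.087; adjusted p = 0.0228). Before adjustment, 2 of these 8 had a limma p under 0.05. The calls of Gadd45b and Tfap2c were each kept in 3 of the 8 fits that left out an array (adjusted p up to 0.0755 and 0.0643). None of 6 methyl-CpG readers and none of 7 enzymes of the methyl donor cycle passed limma. An unadjusted p under 0.05 was found for 1 reader, Zbtb33 (change -0.27, adjusted p = 0.0681), and for 2 cycle genes, Mtrr (0.25, adjusted p = 0.0531) and Mat2b (-0.17, adjusted p = 0.162). The share over all genes was 19.5%.

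Germ line genes whose promoters are known to be silenced by DNA methylation were the one list with many calls: 8 of 17 rose and none fell, against 3.66% higher and 0.838% lower over all genes. Their median change was 0.39, against 0.0077 for all genes, and 0.59 over members above the median level of all genes. Not all of the 8 were well above background, since 95% of the receptor genes averaged under 6.50. Asz1 averaged 5.80 in shGFP and 6.50 in shMKRN1, and Brdt 6.54 and 6.83. Hormad1 (9.36), Dazl (8.14), Sohlh2 (8.11) and Slc25a31 (7.78) were above that background in shGFP already. The name of the list therefore does not describe their state in these cells. The smallest p-values belonged to Sohlh2 (0.93, SE 0.060), Hormad1 (0.89, SE 0.098), Slc25a31 (1.06, SE 0.14) and Dazl (0.80, SE 0.11), with limma adjusted p-values of 0.00019 to 0.00513. Their rise was known from these data before the list was drawn up, so it is a description, and the methylation of their promoters was not measured.

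**Figure D5:**
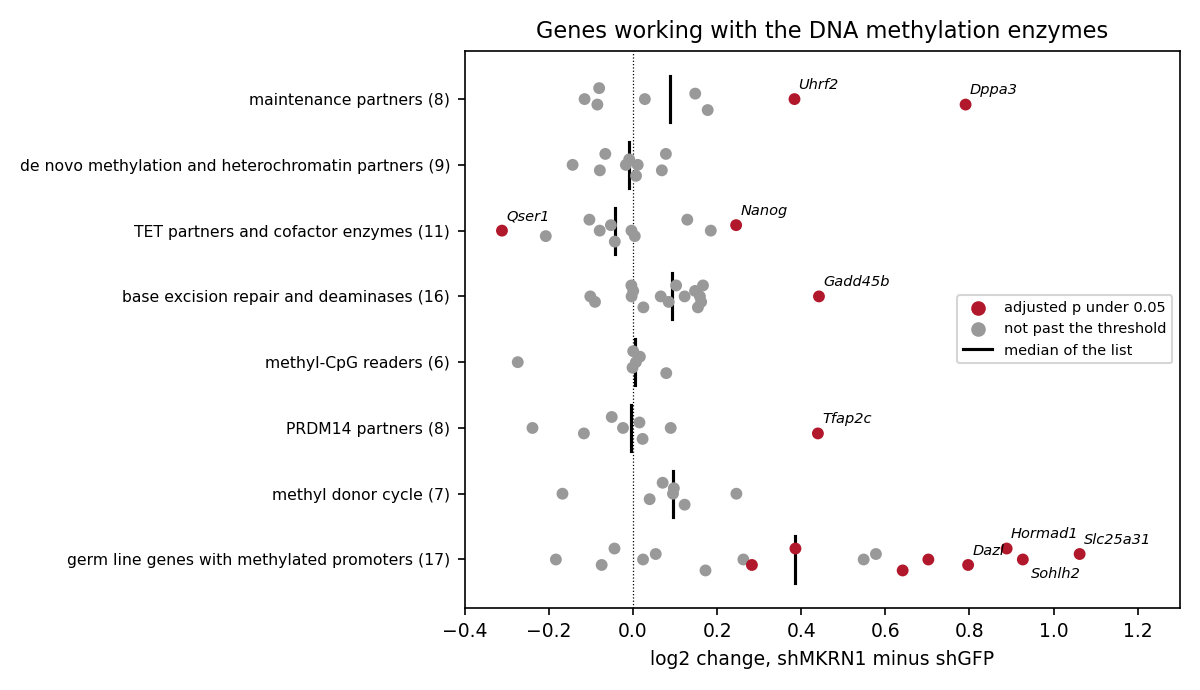
Log2 change (shMKRN1 minus shGFP, horizontal axis) of each measured gene of the 8 pathway lists, with the number measured in brackets; red points had an adjusted p under 0.05, black strokes are list medians, and points are spread vertically for legibility. Apart from the germ line list, whose median is 0.39, the medians lie between -0.043 and 0.095, and the red points are Uhrf2, Dppa3, Nanog, Qser1, Gadd45b and Tfap2c.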

How the data were processed

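Total RNA was measured on Affymetrix arrays, grouped by the hairpin in the sample titles. The deposited table holds log2 expression of 34760 probe sets that the authors made with RMA (version not stated), per the submitters' processing notes. RMA brings the probe values of arrays to a common distribution, so a change shared by most genes is not visible. Differences of dim probe sets are understated. The deposited values still differed slightly in scale, with array medians of 7.17 to 7.24 in shGFP and 7.14 to 7.20 in shMKRN1. Precision is limited by the number of arrays.

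Sets with exactly 1 symbol (21640) gave 19937 genes, 1 row each. Entrez numbers matched 19855 of them to RefSeq (GRCm38.p6) for current symbols. The difference shMKRN1 minus shGFP was fitted for all genes with limma 3.58.1 in R 4.3.3 (lmFit, eBayes, 6 residual degrees of freedom, no filter, no covariate) and tested two-sided, with Benjamini-Hochberg adjustment over all genes and a threshold of 0.05. The fit was tested on simulated data. Alternatives were quantile normalization, median centring, a filter at the median level, all probe sets, the most variable row per gene, eBayes with trend or robust, array weights, each array left out, and (chosen after seeing the data) shGFP 7 and shMKRN1 8 left out together.

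The members, lists and tests were chosen with earlier results of these data known. Named genes were the members, Mkrn1, up to 4 genes of each list that passed with the smallest p, and the 3 genes most like each member that passed. Zfp445, Zbtb33, Mtrr, Mat2b, Brdt, Asz1 and the single markers named were chosen after their values were seen. Some genes of the lists are not reported here.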

Additional observations from a re-analysis of the deposited data

How the results depend on the processing

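No paired analysis was run, because the labels name no pairs and the arrays of the 2 groups share no replicate number. The numbers alternate between the groups, and a fit that pairs adjacent numbers was not tried. The direction of all 9 methylation genes was the same in all 17 alternatives run. Dnmt3a kept its call in 11 of them and Tet1 in 10. The number of methylation genes past the threshold, each by its kept probe set, was 1 over every probe set (where the other Tet1 sets passed), 1 with median centring, 1 with quantile normalization and 3 with array weights, against 2 with the deposited values, and 0 to 2 with an array left out. The count of all genes past the threshold was 521 (every probe set), 1548 (eBayes trend), 1595 (genes above the median level) and 2757 (array weights), against 896, and 309 to 852 with an array left out. The 14 pathway genes past the threshold became 8 (every probe set), 23 (eBayes trend) and 30 (array weights), and 8 to 15 with an array left out. The change of Mkrn1 stayed between -0.64 and -0.57, past the threshold each time. Over the alternatives the list medians ranged from 0.028 to 0.11 for maintenance partners, -0.069 to -0.018 for TET partners, 0.073 to 0.14 for base excision repair, 0.045 to 0.12 for the methyl donor cycle and 0.35 to 0.59 for germ line genes, and took either sign for the other 3 lists. The cause of these differences was not tested. Leaving out shGFP 7 and shMKRN1 8 together was chosen after seeing the data and gave 917 genes, 2 methylation genes and 18 pathway genes. No array stood apart by Dixon's test in any of the 40 groups of 4 arrays checked, those of the methylation genes, Mkrn1 and the named pathway genes. Precision was limited by the 4 arrays a group.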
